A study of Homo sapiens with 16 samples.

Results

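The Tprf-MKI67 cells are the cluster that the study named as proliferative T cells, from the pan-leukocyte gene for CD45, the CD3 genes and Mki67. Every cell carrying that name in the deposited annotation was taken, which gave 440 of 48824 cells over 16 pools, after each 16-base barcode that long-term pools shared was counted once at its deepest copy. The study grew 2 mouse-derived syngeneic mammary tumor models, T22 (LPA1-T22) and T127 (LPA1-T127), in female FVB mice and measured single-cell RNA with 10x Genomics 3′ libraries, each cell's RNA being counted in unique molecular identifiers (UMIs). Nearly all members, 418 cells, came from the 4 short-term T22 pools, with 118, 110, 103 and 87 cells each. The 8 long-term pools gave 21 cells and the 4 short-term T127 pools gave 1.

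Both models came from transgenic mice that express the LPA1 receptor in the mammary epithelium, and pieces of 25 mm3 were placed in the mammary fat pad of mice 6 weeks old. In the short-term experiments T22 or T127 tumors were treated for 4 or 8 days with vehicle or with oral olaparib, a PARP inhibitor, at 50 mg/kg daily, begun 14 days (T22) or 10 days (T127) after transplantation. In the long-term experiment mice carried T22, T127 or both, with T22 placed in the opposite fat pad 14 days before T127, and received vehicle or the same daily dose for 20 days. Every pool held several tumors marked by multiplexing oligos, and no file used here ties a cell to its tumor. Vehicle-treated and olaparib-treated cells are therefore summed in every value below, pools are repeated captures of mixed tumors, and each experiment counted as 1 sample. The labels give the organism as human, but the gene names, the host mice and the genome build GRCm38 are of the mouse.

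A T cell that meets its antigen leaves rest, copies its DNA in S phase and divides in M phase. Mki67 and Top2a, a protein of the mitotic chromosome surface and the topoisomerase that untangles replicated DNA, are transcribed in cycling cells of any type and hardly at all at rest. Most T cells carry an alpha beta receptor (Trac, Trbc1, Trbc2) with CD4 or CD8 as coreceptor, whereas gamma delta T cells (Trdc, Tcrg genes) carry the other kind of receptor and often neither coreceptor. The CD3 chains (Cd3d, Cd3e, Cd3g) hold either receptor at the surface and are the usual mark of a T cell.

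Since the study clustered these cells on their expressed genes, any contrast of the cluster with other clusters is a description and carries no test or p-value. Levels are summed UMIs per 1000000 UMIs (CPM), brackets give 95% intervals that cover counting error only, and log2 ratios add 1 CPM to both sides. A gene was called higher or lower where it reached 20 CPM on either side, differed at least 2-fold and lay on the same side in every pool with at least 20 Tprf-MKI67 cells. That last condition applied in the T22 pools alone, since no long-term pool reached 20 such cells. The other T cells are the clusters CD4_Tcm-TCF7, CD4_Treg-FOXP3, CD8_Tn-CCR7 and Tgd summed. In that order they had 2438, 5, 257 and 387 cells in the T22 pools and 1136, 113, 81 and 207 in the long-term pools. CD4_Tcm-TCF7 therefore weighs most in the sum.

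In the T22 pools the Tprf-MKI67 cells made up 11.9% [10.9 to 13.0] of 3505 T cells, and 13.5%, 12.9%, 11.3% and 10.0% in the single pools. In the long-term pools they were 1.35% [0.836 to 2.05] of 1558 T cells, and in the T127 pools 0.257% of 389. The experiments differ in tumor model, days of treatment and capture, which cannot be told apart in these shares. Among the T22 pools 40 cells, 2 of them Tprf-MKI67, had a barcode that another pool also held, and these were kept. Among the long-term pools 5122 copies of shared barcodes were left out, none of them Tprf-MKI67. Of the 21 long-term Tprf-MKI67 cells, 4 had such a shared barcode, and their left-out copies carried other cluster names. The pools held 34755906 to 55600377 UMIs in all.

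The T22 Tprf-MKI67 cells were also the deeper T cells. Their median was 14608 UMIs and 3591 genes per cell, with a range of 2633 to 34169 UMIs, against 6713 UMIs and 2175 genes in the other T cells. In the long-term pools the medians were 10995 and 3249 UMIs. CPM removes this difference in total RNA per cell. Counted per cell instead, the median log2 ratio over all genes tested moved from 0.04 to 1.06 (T22) and from 0.20 to 1.66 (long-term), so every ratio below is relative to total RNA. On that scale the T22 ratios of Cd3d, Cd3e, Cd3g, Trac, Cd4, Cd8a, Cd8b1, Il7r, Icos, Gzmb and Malat1, all below 0 in CPM and none of them called, stood above 0.

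The markers in the cluster's name were high in each T22 pool. Mki67 stood at 1231, 1229, 1522 and 1298 CPM in the Tprf-MKI67 cells of pools 1 to 4 and at 138, 190, 168 and 135 CPM in the other T cells. Top2a stood at 1504, 1658, 2099 and 1721 CPM against 184, 243, 228 and 190 CPM. The pool values of the clusters did not overlap for either gene, and the summed levels were 8.34-fold [8.01 to 8.68] apart for Mki67 (log2 3.05) and 3.03 apart on the log2 scale for Top2a. Cd3e, the CD3 epsilon chain, was at 731, 919, 711 and 774 CPM against 932, 1020, 986 and 989 CPM, a log2 difference of -0.31. The whole T cell receptor and CD3 list of 6 tested genes had no call and a median of -0.35. In the sum of the cells the cycle markers were high and CD3 lay within 2-fold of the other T cells. The study named the cluster from Mki67 and the CD3 genes, so these levels restate that choice and do not check it.

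**Figure D1:**
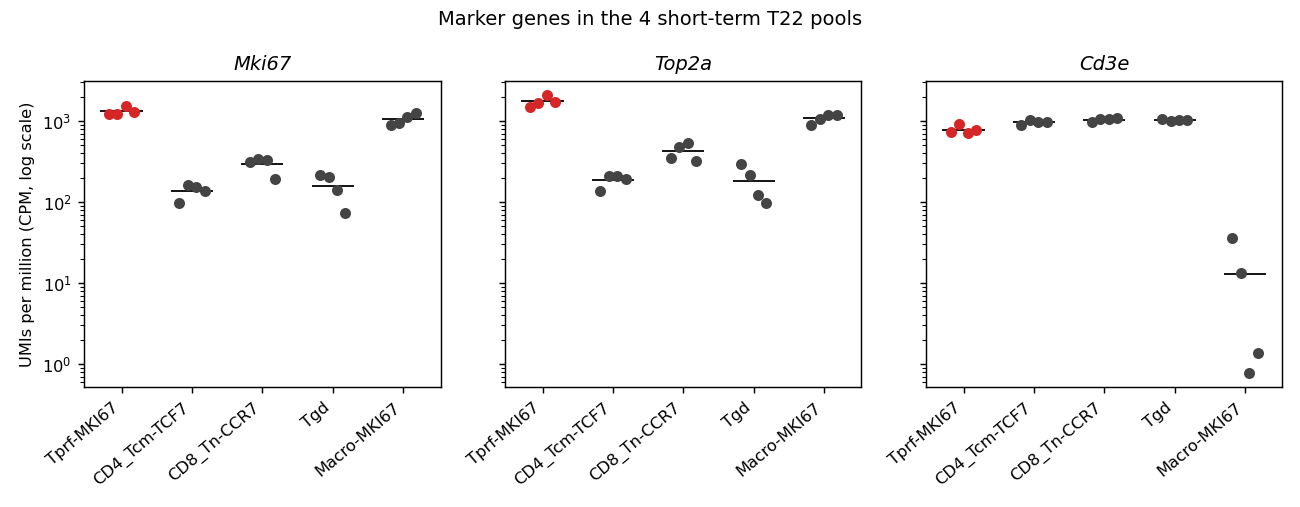
CPM (log axis) of Mki67, Top2a and Cd3e in the T22 pools, with 1 point per pool and a bar at the mean of the 4 pools, for Tprf-MKI67, 3 other T cell clusters and the cycling macrophages Macro-MKI67. Tprf-MKI67 lay near Macro-MKI67 for Mki67 and Top2a and near the other T cell clusters for Cd3e.

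The plot of markers by pool compares 3 quantities across 5 clusters. Tprf-MKI67 shared its Mki67 and Top2a level with the cycling macrophages and its Cd3e level with T cells. A UMI of any CD3 gene was found in 86.4% of Tprf-MKI67 cells, against 89.3% of CD4_Tcm-TCF7 cells and 3.49% of the macrophages Macro-M1, where free RNA would give the share. With each cell thinned to 2000 UMIs the shares were 81.8%, 88.6% and 1.25%. Mki67 itself was seen in 83.0% of Tprf-MKI67 cells and 16.5% of CD4_Tcm-TCF7 cells, or 68.4% and 7.95% after thinning, which left out 98 of the latter as too shallow.

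The cluster held 70.0% of all Mki67 UMIs of T22 T cells with 11.9% of the cells and 21.9% of the UMIs. It held 47.6% of those of Pcna, the sliding clamp of DNA polymerases. Single cells varied widely. A cell had a median of 37 UMIs of Mki67 and Top2a together (0 to 246), at least 10 in 302 cells (72.2%) and none in 48 cells (11.5% [8.59 to 14.9]). Of the other T cells, 146 of 3087 (4.73%) also had at least 10.

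DNA replication genes were higher throughout. Every gene of the S phase and replication list reached the level filter, and 26 of 26 were called higher and none lower in the T22 Tprf-MKI67 cells, with a median log2 ratio of 1.84. Over all 6001 genes tested, 6.92% were called higher and 1.3% lower, with a median of 0.04. Rrm2, a subunit of the reductase that makes deoxynucleotides, was at 384, 340, 385 and 290 CPM in pools 1 to 4 against 33.5, 43.6, 31.4 and 27 CPM in the other T cells. Every pool of Tprf-MKI67 lay above every pool of the others, and the summed levels of 351 and 33.8 CPM differed by 3.34 on the log2 scale. Clspn, a checkpoint adaptor at replication forks, was at 223 against 28.7 CPM. The thymidylate-making genes Tyms (171 against 25.4 CPM) and Tk1 (117 against 16.5 CPM) stood in the same order. Less far apart were Pcna at 282 against 87.1 CPM and Mcm3, a subunit of the replicative helicase, at 262 against 82.7 CPM.

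Mitotic genes were further apart than replication genes. All 30 tested genes of the G2 and M phase list were called higher, with a median log2 ratio of 2.72 and a range from Smc4 at 1.45 to Ccna2 at 3.33. The list holds Mki67, by which the study named the cluster, at 1311 CPM, and Top2a at 1729 CPM. Its counts, sums and per-cell limits, here and below, therefore restate that choice in part. Ccna2, the cyclin of S and G2, was at 179, 171, 211 and 177 CPM in the Tprf-MKI67 cells against 13.5, 22.9, 19.1 and 14.0 CPM, again with no overlap of pools. Birc5, a subunit of the chromosomal passenger complex, was at 466 against 51.3 CPM and its kinase partner Aurkb at 82.8 against 8.74 CPM. Nusap1, a spindle protein, stood at 368 against 41.0 CPM. Cenpa, the centromere's histone H3, was at 254 against 70.3 CPM (log2 1.84) and Smc4, of the condensin complex, at 442 against 162 CPM. Of the 30 genes 14 reached 20 CPM in Tprf-MKI67 alone, among them Ccna2 and Aurkb, so those furthest below that level in the other T cells had to differ to be tested. The other 16 reached it in the other T cells too, and 16 of 16 were called higher, as were 20 of 20 such S phase genes.

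Of 12 chromatin and tubulin genes of dividing cells, 11 were called higher, the exception being H1f0 at 56.0 against 29.8 CPM. Stmn1, at 85.9 against 14.7 CPM, reached 20 CPM through Tprf-MKI67 alone and had to differ to be tested, and of the other 11 genes 10 were called. Hmgb2, a chromatin protein, was at 2110 against 486 CPM. The tubulins Tubb5 (1623 against 323 CPM) and Tuba1b (982 against 151 CPM) were further apart. Summed over lists, the Tprf-MKI67 level was 3.88-fold [3.81 to 3.94] that of the other T cells for S phase, 6.73-fold [6.63 to 6.83] for G2 and M phase and 3.31-fold for chromatin.

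**Figure D2:**
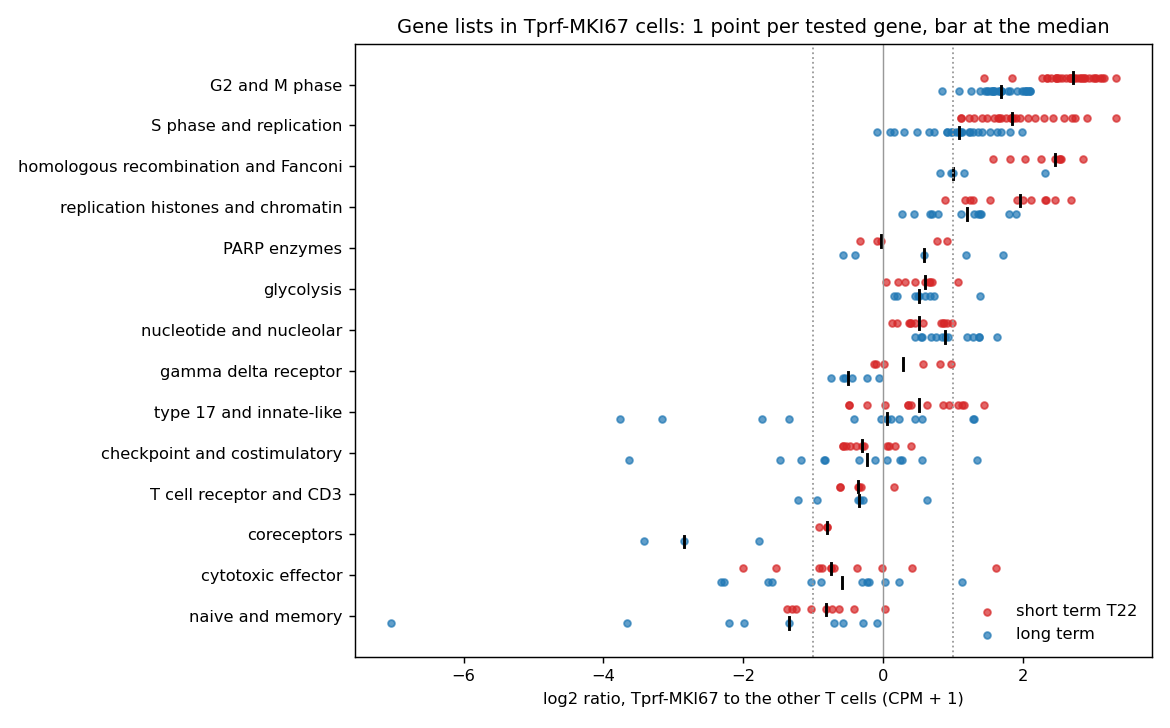
Log2 ratio of Tprf-MKI67 to the other T cells for each tested gene in 14 gene lists (red, T22 pools; blue, long-term pools), with a bar at each list's median and dotted lines at 2-fold. The S phase, G2 and M phase and repair lists lie to the higher side in the T22 pools, with medians of 1.84, 2.72 and 2.46, and nearer to 0 in the long-term pools.

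The plot of list ratios places each gene as 1 point, so the spread within a list can be read beside its median. Genes that start the cycle were mixed. Among 11 tested G1 cyclins, kinases and E2F factors, Ccne1, Ccne2, Cdk2, E2f1, E2f2 and E2f8 were higher, and Ccnd2, a D-type cyclin, was lower at 247 against 538 CPM. The 6 higher genes were at 6.23 to 13.8 CPM in the other T cells, so they entered the count through the Tprf-MKI67 side alone and had to differ to be tested. E2f8, a repressor that E2F itself induces, was at 55.4 against 6.23 CPM.

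The cycle inhibitors did not move together. Of 12 tested inhibitors and quiescence genes, 3 were higher, all of the INK4 family and its locus, and 1 was lower, with a median of -0.28. The shares over all 6001 genes tested were 6.92% and 1.3%. Cdkn2a entered through the Tprf-MKI67 side alone, so it had to differ to be tested, and of the other 11 genes 2 were higher. It was at 33.6, 36.0, 28.2 and 31.1 CPM in the Tprf-MKI67 pools and at 8.5, 9.2, 10.8 and 7.3 CPM in the others. Cdkn2c was at 106 against 34.4 CPM and Cdkn2d at 92.9 against 38.5 CPM. The lower one was Btg1, an antiproliferative gene of resting lymphocytes, at 480 against 1068 CPM.

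Repair genes of homologous recombination, the pathway whose loss makes tumors sensitive to PARP inhibitors, were higher as well. Of the 15 listed genes, 9 reached 20 CPM and all 9 were called higher, with a median log2 ratio of 2.46. All of them but Blm reached that level in the Tprf-MKI67 cells alone and so had to differ to be tested, which makes this count a description only. Brca1 was at 81.0, 55.1, 90.3 and 39.0 CPM in Tprf-MKI67 and at 11.2, 12.2, 10.4 and 11.2 CPM in the other T cells. The pools did not overlap, though pools 2 and 4 were lower than 1 and 3, and the log2 ratio was 2.46. Brca2 was at 61.4 against 16.7 CPM. The helicases Brip1 and Blm were at 67.5 against 10.8 CPM and 70.1 against 22.9 CPM. The genes below 20 CPM on both sides were Palb2 (7.63 against 1.82 CPM), Rad54b (14.9 against 3.19 CPM), Fanca (11.04 against 2.87 CPM), Fancd2 (15.9 against 1.73 CPM), Fanci (17.9 against 3.82 CPM) and Xrcc2 (10.1 against 2.91 CPM), with the same side higher in each. Over all 15 genes the list summed was 5.01-fold [4.76 to 5.28] the level in the other T cells.

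Parp1 and Parp2, targets of olaparib, stayed under the 2-fold limit. None of 5 tested genes of the PARP list was called in the T22 pools. They were Parp1, Parp2, Parp9, Parp14 and Parg, not all of them olaparib targets, and their median was -0.03. Parp1, the main target, was at 129, 137, 144 and 129 CPM against 65.8, 76.4, 78.9 and 64.0 CPM, so the pools did not overlap while the log2 ratio was 0.91. Parp2 was at 58.1 against 33.7 CPM (0.77). Whether olaparib moved any of these genes cannot be read from pools that mix treated and vehicle tumors.

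Against each of the larger T cell clusters the G2 and M list was further apart than the S phase list. Against CD4_Tcm-TCF7, the S phase list was 4.17-fold and the G2 and M list 7.59-fold higher. Against the gamma delta cluster Tgd they were 3.74-fold and 6.99-fold higher. Against CD8_Tn-CCR7 they were 2.68-fold and 3.64-fold higher, with 20 of 26 and 29 of 30 genes called (11.1% of 5966 genes tested were higher). The genes not called against CD8_Tn-CCR7 were Mcm2, Mcm4, Mcm6, Cdt1, Chaf1b and Slbp, with log2 ratios of 0.43 to 0.94, and Smc4 at 0.88. That cluster had the largest share of cells at or above the Tprf-MKI67 median of G2 and M phase UMIs, 7.39% [4.51 to 11.3] of 257 cells, beside 2.75% of CD4_Tcm-TCF7 and 3.36% of Tgd cells.

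The cycling macrophages, Macro-MKI67, gave a measure of how strong the cycle program was. The Tprf-MKI67 level was 1.11-fold [1.10 to 1.13] theirs for G2 and M phase, 1.54-fold [1.51 to 1.57] for S phase and 1.27-fold [1.20 to 1.33] for repair. Of 30 G2 and M genes none was called higher and Aurka and Anln were lower, at 34.1 against 71.1 CPM and 44.3 against 137 CPM. Anln encodes anillin, a scaffold of the cleavage furrow. Of 26 S phase genes 4 were higher: Rrm2 (351 against 149 CPM), Cdc6 (59.7 against 24.3 CPM), Slbp (106 against 43.2 CPM) and Dut (557 against 220 CPM). Over all 6639 genes tested in this contrast, 11.3% were higher and 15.1% lower.

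**Figure D3:**
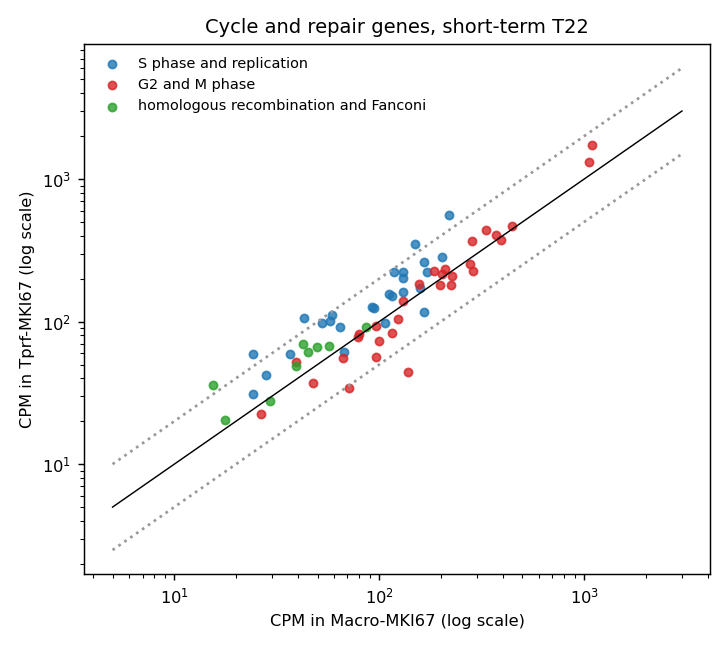
CPM (log axes) of S phase, G2 and M phase and repair genes in T22 Tprf-MKI67 cells against Macro-MKI67 cells, 1 point per gene, with a solid line at equal levels and dotted lines at 2-fold. Most points lie between the dotted lines, with Anln the farthest below and Dut among the 4 S phase genes above.

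In the plot against the cycling macrophages, each gene's distance from the solid line is its ratio between the clusters. S phase points lay mostly above it and G2 and M points on both sides.

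Single cells spread over the cycle. The S phase list had a median of 40.0 UMIs per 10000 in T22 Tprf-MKI67 cells (quartiles 16.3 and 60.8) and the G2 and M list 61.4 (11.4 and 119). In CD4_Tcm-TCF7 cells the medians were 4.33 and 2.95. The 95th percentile of the other T cells, 36.2 for S phase and 26.1 for G2 and M, was used as a limit. Above both limits were 181 cells (43.3%), above that for G2 and M alone 97 (23.2%), above that for S phase alone 48 (11.5%) and above neither 92 (22% [18.1 to 26.3]). The classes are ranges, with 68 cells between 0.8 and 1.25 times the S phase limit and 24 as near to the other. The 92 cells had a median of 9559 UMIs.

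**Figure D4:**
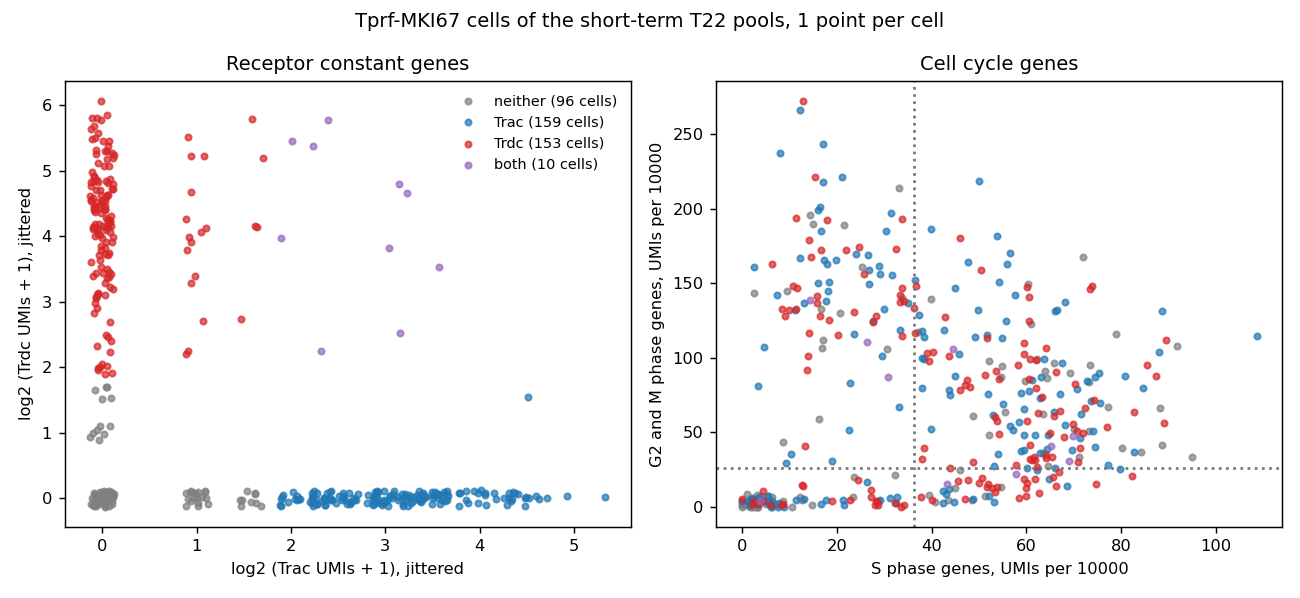
Left, UMIs of Trac against Trdc in each T22 Tprf-MKI67 cell (log2 of UMIs plus 1, jittered); right, UMIs per 10000 of the S phase list against the G2 and M list in the same cells, with dotted lines at the 95th percentiles of the other T cells. Cells with both receptor genes are few (10 of 418 at 3 UMIs or more each), and 181 cells lie above both cycle limits.

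The plot of receptor genes and cycle lists shows each of the 418 cells in both panels. In the left panel the cells lay along the axes, by Trac or by Trdc. At 3 UMIs or more, 159 cells (38.0% [33.4 to 42.9]) had Trac only, 153 (36.6% [32.0 to 41.4]) Trdc only, 10 (2.39%) both and 96 (23.0% [19.0 to 27.3]) neither. Trac cells made up 35.6%, 39.1%, 37.9% and 40.2% of pools 1 to 4 and Trdc cells 33.9%, 43.6%, 34.0% and 34.5%. Among CD4_Tcm-TCF7 cells Trac alone was at 41.5% and Trdc alone at 7.14%, among Tgd cells 0 of 387 had Trac alone and 84.5% had Trdc alone, and among CD8_Tn-CCR7 cells 74.7% had Trac alone. Trdc alone was also found in 29.5% of 1193 cells named NK cells, so it does not mark gamma delta T cells by itself. Thinned to 2000 UMIs and counted at 1 UMI, Trac and Trdc cells were 27.5% and 30.6%. These classes were set after the values were seen, and depth differs between clusters.

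The Trac class held both coreceptor lineages. Of its 159 cells, 41 (25.8%) had a UMI of Cd4 only, 56 (35.2%) of Cd8a or Cd8b1 only, 2 of both and 60 (37.7%) of neither. In the Trdc class 1 of 153 cells had a Cd4 UMI and 1 a Cd8 UMI. Over all Tprf-MKI67 cells Cd4 was seen in 12.2%, and in the Trac class in 27.04% [20.3 to 34.7] against 0.654% [0.0165 to 3.59] in the Trdc class at like depth (medians of 14854 and 16238 UMIs). Macro-M1 macrophages showed Cd4 in 16.4%. Cd8a or Cd8b1 was seen in 15.6%, against 1.58% in Macro-M1, and Foxp3, the regulatory T cell factor, in 6 cells (1.44%).

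The cycle program was close in size in both classes. Mki67 was at 1355 CPM in Trac and 1362 CPM in Trdc cells, a ratio of 1.00 [0.957 to 1.05]. The other T cells of the same classes were at 183 and 144 CPM. Their Trdc class had 503 cells, of which 327 were named Tgd, 174 CD4_Tcm-TCF7 and 2 CD8_Tn-CCR7. The S phase list summed to 4170 and 4364 CPM, the G2 and M list to 8668 and 7977 CPM, and the repair list to 598 and 521 CPM. Top2a was at 1926 CPM in Trac and 1654 CPM in Trdc cells, a ratio of 0.859 [0.823 to 0.896]. Parp1 was at 114 CPM in Trac and 166 CPM in Trdc cells, each above the other T cells of its class at 71.8 and 99.0 CPM. Cdkn1a, the p21 inhibitor, was at 87.1 CPM in Trac and 174 CPM in Trdc cells.

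The classes kept the genes of their lineages. Cd163l1, a scavenger receptor of type 17 gamma delta T cells, was at 606 CPM [576 to 636] in Trdc and 0.838 CPM [0.101 to 3.03] in Trac cells. The other T cells of the same classes were at 564 and 5.71 CPM, so only the Trdc level was close. The receptor gene Trdv4 was at 404 CPM in Trdc cells and had no UMI in Trac cells. Blk, a Src-family kinase of B cells and type 17 gamma delta T cells, was at 244 and 63.3 CPM and the IL-23 receptor gene Il23r at 81.9 and 36.0 CPM. Il17a was at 452 CPM in Trdc and 101 CPM in Trac cells, a ratio of 4.48 [3.89 to 5.16]. The checkpoint receptor gene Pdcd1 was at 195 and 52.4 CPM, a ratio of 3.72 [3.05 to 4.56].

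Conversely, the coreceptor Cd8b1 was at 207 CPM in Trac cells with no UMI in Trdc cells. Costimulation and proximal signalling genes followed the same split. Cd28 was at 136 CPM in Trac and 16 CPM in Trdc cells, Cd5 at 87.1 and 10.5 CPM, and Cd2 at 269 and 66.7 CPM. Lck, the first kinase of receptor signalling, was at 259 and 66.7 CPM. Lat, the adaptor below it, was close in both classes at 372 and 338 CPM. In other Trdc cells Lck was at 112 CPM and Cd2 at 137 CPM, giving ratios of 0.594 [0.496 to 0.709] and 0.487 [0.408 to 0.579] for Tprf-MKI67. These other cells mix 327 Tgd with 174 CD4_Tcm-TCF7 cells, and the part of that mix in the ratios was not tested. The Tprf-MKI67 Trdc class also held markers of other lymphocytes, with Ncr1 in 23 of its 153 cells, Gzma in 23 and no CD3 UMI in 11, against 78, 50 and 18 of the 503 other Trdc cells, which were shallower (a median of 7922 against 16238 UMIs). Of its cells 23 were above neither cycle limit. Among cells with a CD3 UMI and none of Ncr1 or Gzma, 124 in Tprf-MKI67 and 400 in the other T cells, a choice made after the values were seen, the ratios were 0.347 [0.255 to 0.465] for Lck and 0.433 [0.342 to 0.544] for Cd2.

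Interferon-stimulated genes also differed between the classes. The interferon response list summed to 2274 CPM in Trac and 604 CPM in Trdc cells, and to 2001 and 1090 CPM in the other T cells of these classes. Ifi27l2a made up much of this, at 1319 CPM in Trac and 163 CPM in Trdc cells, a ratio of Trdc to Trac of 0.124 [0.112 to 0.137]. Over the whole cluster none of 11 tested interferon genes was called and the median was -0.22.

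Of 14 tested genes of the type 17 and innate-like list Il17f, Cd163l1 and Il13 were higher and none was lower, with a median of 0.52. Of all 6001 genes tested 6.92% were higher and 1.3% lower. Il17f was at 160, 105, 169 and 264 CPM in Tprf-MKI67 against 58.7, 44.1, 80.8 and 64.4 CPM in the other T cells, a log2 ratio of 1.44. Within the Trdc class Il17f was at 259 CPM against 77.2 CPM in other Trdc cells, a ratio of 3.36 [2.94 to 3.85], while Il17a was at 452 against 475 CPM there (0.952 [0.884 to 1.02]). The other Trdc cells are the mix of clusters given above, and its part in these ratios was not tested. Within the Trac class Il17f was at 70.0 against 73.2 CPM. Cd163l1 was at 264 against 118 CPM in the whole cluster, while within the Trdc class the levels were close, as given above. The Trdc class held 153 of 418 Tprf-MKI67 cells and 503 of 3087 other T cells. The part of these unlike shares in the Cd163l1 call was not tested. Il13, a type 2 cytokine, was at 120 against 54.2 CPM, and without the cells that lacked CD3 its log2 ratio was -0.75.

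Most cytotoxic genes were not called. Of 11 tested, Gzma was higher and Ccl5 and Fasl were lower, with a median of -0.74. Of all 6001 genes tested 6.92% were higher, a share near that of this list, and 1.3% lower. Gzma, a granzyme, was at 421, 273, 910 and 213 CPM against 126.8, 185, 160 and 102 CPM, with pool 3 far above pools 2 and 4. Its log2 ratio of 1.62 became -0.041 when only cells with a CD3 UMI were kept. Ccl5, a chemokine of effector and memory T cells, was at 381, 176, 533 and 278 CPM against 1242, 1440, 1296 and 1404 CPM, the pools not overlapping. It was lower in both receptor classes, at 0.325 [0.303 to 0.348] of the other T cells' level in Trac and 0.203 [0.186 to 0.221] in Trdc cells. The death ligand gene Fasl was at 37.2 against 109 CPM. Gzmb was at 167 against 168 CPM.

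The cells without CD3 were a mixed set. In the T22 pools 57 of 418 cells (13.6%), 17, 9, 22 and 9 in pools 1 to 4, had no UMI of Cd3d, Cd3e or Cd3g. Their median depth was 10688 UMIs against 15082 in the other 361, and 46 of the 57 fell in the class with neither receptor gene, 11 in the Trdc class and none in the Trac class. Cells without a CD3 UMI were 10.7% of CD4_Tcm-TCF7 and 11.1% of Tgd cells, at lower depth. The level of Mki67 was 1047 CPM in the 57 cells and 1340.45 CPM in the cells with CD3.

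Genes of innate lymphocytes were found in these 57 cells, in parts that were set apart after the values were seen. At 3 UMIs or more, 25 cells (43.9%; 7, 4, 11 and 3 by pool) had Ncr1, Gzma or Klre1 and 30 cells (52.6%; 9, 5, 10 and 6 by pool) had Areg, Il5, Il13 or Il1rl1. No cell had both and 2 had neither. Of the 361 cells with a CD3 UMI, 29 (8.03%) had the first genes only and 29 (8.03%) the second only, so these genes were not particular to cells without CD3. The levels of the genes used for this split follow from it and are given as a description only. In the 25 cells Ncr1, the NKp46 receptor gene, was at 865 CPM and Gzma at 5893 CPM. Of genes the split did not use, Prf1 (perforin) was at 609 CPM, the T-box factor gene Eomes at 362 CPM and the adaptor Tyrobp at 1607 CPM there. In the 30 cells Prf1 and Eomes had no UMI, below a floor of 11.2 CPM for 3 counts, and Tyrobp was at 11.2 CPM.

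In the 30 cells, chosen for them, Areg, the growth factor amphiregulin, was at 4043 CPM and seen in 25 cells, the cytokine genes Il13 and Il5 were at 2111 and 516 CPM and Il1rl1, the IL-33 receptor, was at 493 CPM. Of genes outside the split, Gata3, the type 2 factor, was at 964 CPM in the 30 cells and 81.4 CPM in the 25. Rora, a factor shared by innate lymphoid and type 17 cells, was at 1341 and 139 CPM. Trbc1 was at 979.6 CPM in the 25 cells and 1072 CPM in the 30, beside 1009.6 CPM in the cells with CD3, while Trac was at 4.86 CPM over all 57. Trbc1 was also seen in 94.0% of the cells named NK cells, at 1126 CPM.

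The cycle was uneven between these parts. Mki67 was at 1399 CPM [1274 to 1532] in the 25 cells, with a UMI in 23 of them, and at 605 CPM [516 to 706] in the 30 cells, with a UMI in 10. Top2a was at 1751 and 874 CPM and Pcna at 353 and 153 CPM. The median depths were 12946 and 8029.5 UMIs. Cd4 and Cd163l1 had no UMI in either part. The cell type of these cells is left unnamed here.

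**Figure D5:**
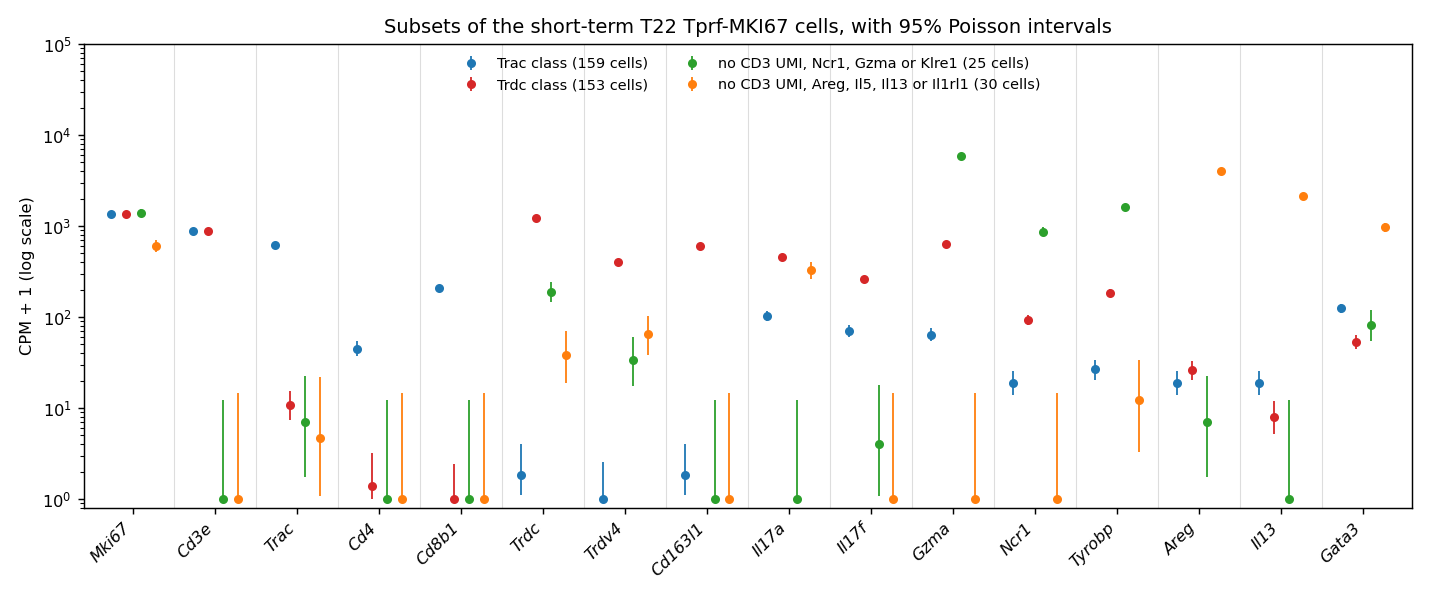
CPM plus 1 (log axis) of selected genes in 4 sets of T22 Tprf-MKI67 cells: the Trac class (159 cells), the Trdc class (153) and cells with no CD3 UMI that had Ncr1, Gzma or Klre1 (25) or Areg, Il5, Il13 or Il1rl1 (30), of which 10 and 1 are also in the Trdc class. Lines are 95% Poisson intervals, and Mki67 is lowest in the last set, at 605 CPM from 10 of 30 cells. Cd3e, Trac, Trdc, Gzma, Ncr1, Areg and Il13 helped to choose the sets, so their contrast was set by the split.

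The plot of subsets puts the receptor classes beside the cells that lacked CD3. It shows 4 sets under 1 cluster name that differ in lineage genes, among them some that the split itself used.

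Of 9 tested naive and memory genes, which mark recirculating T cells, 4 were called lower, none was higher and 5 were not called, with a median of -0.82. Counted per cell, Satb1, Ccr7 and Lef1 were at 0.870, 0.822 and 0.993 times the level of the other T cells. The chromatin organizer Satb1 was at 107, 113, 103 and 96.8 CPM in pools 1 to 4 against 245, 269, 252 and 238 CPM, and the pools did not overlap. The lymph node homing receptor Ccr7 was at 30.7 against 77.3 CPM and Lef1, a factor of naive T cells, at 21.1 against 44.0 CPM. Il7r, the survival cytokine receptor, was at 516 against 856 CPM and was not called (log2 -0.73). Among 11 tested signalling genes Cd27, a costimulatory receptor, was lower at 28.4 against 71.5 CPM. Against the gamma delta cluster Tgd alone, none of 9 naive and memory genes was called and the median was 0.07 (7.28% of 5992 genes tested were higher and 1.27% lower), and against CD8_Tn-CCR7 5 of 10 were lower (2.88% of all genes). In the main contrast none of 11 state factors and none of 11 checkpoint and costimulatory genes was called.

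None of 12 tested nucleotide and nucleolar genes was called. All 12 had log2 ratios above 0, with a median of 0.52, beside 53.8% of all genes tested above 0. The largest were Umps, of pyrimidine synthesis, at 47.6 against 23.6 CPM and Mthfd2, of mitochondrial folate metabolism, at 97.6 against 51.2 CPM. Of 9 glycolysis genes, Tpi1 was higher at 111 against 51.7 CPM and the median was 0.60.

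Markers of other cell types were low, apart from those of NK cells. The macrophage list summed to 224 to 366 CPM in the Tprf-MKI67 pools against 395 to 484 CPM in the other T cells and 25491 to 28957 CPM in Macro-MKI67, and of 7 tested genes of 12, none was higher. The NK list summed to 505 to 1438 CPM against 414 to 564 CPM, with Gzma its only called gene of 7, and to 7130 to 8472 CPM in the cells named NK cells. No gene of the malignant, fibroblast, endothelial or B cell lists was higher. Of RNA quality genes none of 8 was called and the median was -0.56, with Malat1 at 9465 against 17397 CPM. Ribosomal protein genes took 25.4% of UMIs against 31.2% and mitochondrial genes 0.888% against 1.01%. Their part in the results was not tested.

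The 21 long-term cells carried the name with less of the cycle. Mki67 was at 431 against 103 CPM (106 UMIs, log2 2.06) and Top2a at 821 against 253 CPM (1.70), while Cd3e was at 663 against 849 CPM. Of the 21 cells 6 had no UMI of either cycle gene, 5 had 1 or 2 and 7 had at least 10, with a median of 2. Against the 95th percentiles of the long-term other T cells (37.9 for S phase, 39.2 for G2 and M), 12 of 21 were above neither. Without pool 8 the Mki67 ratio was 1.71. A count of 0 in a cell does not show that the gene is off.

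On the level of lists, 15 of 26 S phase genes, 28 of 29 G2 and M genes, 3 of 5 repair genes and 7 of 12 chromatin genes were called higher, with medians of 1.09, 1.69, 1.00 and 1.20. Of the S phase genes 4 reached 20 CPM in Tprf-MKI67 alone and had to differ to be tested, and of the other 22, 11 were called. Of the G2 and M genes 11 reached 20 CPM in Tprf-MKI67 alone, and of the other 18, 17 were called. The repair count is a description only, since Brca2, Bard1, Blm and Brip1 reached 20 CPM in the Tprf-MKI67 cells alone, on 5 to 8 UMIs each, and the untested Brca1 was at 12.2 against 10.6 CPM. Over all 5693 long-term genes tested 9.87% were higher and 6.8% lower, with a median of 0.20, and 20 CPM amounts to 5 UMIs here. The summed lists were 2.09-fold (S phase) and 3.23-fold (G2 and M) those of the other T cells, and 1.05-fold [0.966 to 1.14] and 0.811-fold [0.765 to 0.858] those of long-term Macro-MKI67. Parp1 was higher at 126 against 54.6 CPM, from 31 UMIs, while Parp3, at 40.7 against 11.7 CPM from 10 UMIs, reached 20 CPM through Tprf-MKI67 alone and had to differ to be tested.

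Lower long-term lists included the interferon response, with 9 of 10 tested genes lower and a median of -1.71. Of these genes 4 reached 20 CPM in the other T cells alone, and of the other 6, 5 were lower. Ifi27l2a was at 276 against 1559 CPM and Isg15, a ubiquitin-like interferon product, at 102 against 364 CPM. Ifit1 and Ifit3 had no UMI, at least 3.89-fold and 4.66-fold lower by a floor of 3 counts over the 21 cells. All 3 coreceptor genes were lower (median -2.85), from 1 UMI of Cd4, 8 of Cd8a and 5 of Cd8b1. Cd4 reached 20 CPM in the other T cells alone and had to differ to be tested. Counted per cell, Cd4, Cd8a and Cd8b1 were at 0.218, 0.819 and 0.378 times the level of the other T cells. Lower too were 5 of 9 naive and memory genes (median -1.35, with 3 of the 7 at 20 CPM in Tprf-MKI67). Among them was S1pr1, the receptor for exit from lymph nodes, with no UMI and at least 10.7-fold lower. Il17a was called higher at 451 against 185 CPM, from 111 UMIs, but its log2 ratio of 1.28 was -0.80 without pool 7. By receptor genes 11 cells were Trac, 7 Trdc and 3 neither, and 2 had no CD3 UMI. Macrophage genes were lower in 5 of 7 tested and red cell genes in 3 of 3, with Hbb-bs at 1996 against 4074 CPM. Of RNA quality genes 5 of 8 were lower (4 of the 7 at 20 CPM in Tprf-MKI67). The part of these genes in the lower lists was not tested.

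The experiments shared part of their calls. Genes higher in both were 193, which is 46.5% of the 415 T22 calls and 34.3% of the 562 long-term calls, and genes lower in both were 36, or 46.2% of 78 and 9.30% of 387. Of the 5207 genes tested in both experiments, 6.01% were higher in the T22 and 8.22% in the long-term pools, and 1.17% and 6.22% were lower. Among the 193, 120 were under 20 CPM in the other T cells of at least 1 experiment and had to differ there to be tested, as 24 of the 36 were in Tprf-MKI67. The 15 shared higher genes with the largest long-term ratio rest on few UMIs there and are a description only. All of them lay under 20 CPM in the T22 other T cells (2.68 to 17.2 CPM), as did all but Kif15 (21.4 CPM) in the long-term ones. They held replication histones, with T22 levels of 231 against 16.9 CPM for Hist1h1a and 219 against 15.2 CPM for Hist1h2ab, and Hist1h3h, Hist1h2ai and Hist1h2af beside them. They also held the spindle motor Kif15 (132 against 17.2 CPM), Kif4, the cytokinesis factor Ect2, the cohesin acetyltransferase Esco2, the BRCA1 partner Bard1 (48.5 against 9.37 CPM), Gtse1, Fam83d, Cip2a, Rcc1 and Myl10. T22 log2 ratios of these 15 ran from 1.65 (Myl10) to 3.77 (Hist1h2ab).

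The 15 shared lower genes included Cmah, Lef1, Plac8, Tcp11l2, Frat2, Phf1, Fam117b, Gramd3, Il6st, Acta2, Ccl5, Gdpd3, Slfn5 and Tpm2. In the T22 pools Slfn5, a member of the Schlafen family, was at 14.8 against 78.6 CPM, Plac8 at 19.5 against 73.2 CPM, Gdpd3 at 83.3 against 237 CPM and Gramd3 at 114 against 257 CPM. Acta2 and Tpm2 are contractile genes of muscle-like stromal cells, and the fibroblast list summed to 108 CPM in Tprf-MKI67 and 190 CPM in the other T cells. The part of that RNA in their ratios was not tested.

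The study also listed 25 genes for this cluster, a choice made on these same cells and so no independent evidence. In the T22 pools 5 of the 25 reached 20 CPM and none was called. They were Sept1 (567.98 against 574 CPM), Skap1 (356 against 355 CPM), Trbc2 (1157 against 1464 CPM), Ltb (1007 against 987 CPM) and Ptprcap (492 against 502 CPM), all T cell or leukocyte genes shared with the other T cells.

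The single T127 cell had 7372 UMIs, of which 16 were Mki67, 15 Top2a and 7 Pcna. It had 1 UMI of Cd3g, none of Cd3d, Cd3e or Trac and 4 of Trdc. The 388 other T cells of the T127 pools had Mki67 at 251 CPM [226 to 278]. The part of free RNA in that level was not tested.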

How the data were processed

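Single-cell RNA was measured in 16 pools of dissociated tumors. The authors made raw UMI counts per gene and cell with Cell Ranger 6.0.0 on GRCm38, introns included, removed shallow cells, cells rich in mitochondrial RNA and doublets (Scrublet), clustered the rest and deposited the counts with a cluster name per cell. No further doublet caller was run. Counts of 32285 genes were summed per cluster and experiment in Python 3.11.15 with pandas 2.3.3 and numpy 2.4.6 and set beside each other as CPM and log2 ratios with a pseudocount of 1 CPM. Sums carry exact Poisson, shares Clopper-Pearson and ratios conditional binomial 95% intervals (scipy 1.17.1), and figures were drawn with matplotlib 3.10.9. UMIs are counted molecules, and the intervals leave out differences between animals. The calling code was tested on simulated data.

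The members and the 30 gene lists were chosen with earlier results of these data known. Of the listed names 3 (Trgc1, Trgc2, Trgc4) matched no row, while the gamma constant genes Tcrg-C1, Tcrg-C2 and Tcrg-C4 were measured and tested. Besides list members, the text names the 15 genes with the highest and the 15 with the lowest long-term ratio among genes called alike in both experiments, leaving out ribosomal protein, mitochondrial and unnamed gene models. Receptor classes and the split of cells without CD3 were set after the values were seen. No genome or sequence table of the mouse was used. Counting over 3′ ends does not allow levels of different genes to be compared. Alternatives changed the depth filter, shared barcodes, doublet filter, pseudocount, level filter, reference weights, macrophage-UMI filter, scaling, CD3 requirement, class threshold and each pool. Single values of some listed genes are not reported here.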

Additional observations from a re-analysis of the deposited data

Results flagged for a closer look

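Of 56 groups of pools that were examined, 1 was of the 8 long-term pools and the rest were of the 4 T22 pools. In 3 T22 groups a pool's distance from the nearest of the others was over 0.829 of the whole range. Chance alone gives about 1 such group in 20. The share of Tprf-MKI67 cells with Trdc only was 43.6% in pool 2 and 33.9% to 34.5% in the other pools. Cd8a in Tprf-MKI67 cells was at 37.8 CPM in pool 1 and at 82.4 to 88.8 CPM in the others. Hmgb2 was at 2334 CPM in pool 3 and at 2039 to 2052 CPM in the others.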

How the results depend on the processing

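With UMIs per cell in place of CPM, an alternative added after the data were seen, the T22 calls went from 415 to 3328 higher and from 78 to 3 lower, the long-term calls from 562 to 4711 higher and from 387 to 61 lower. The log2 ratios of Mki67, Top2a and Cd3e became 4.09, 4.07 and 0.73 (T22) and 3.54, 3.19 and 1.15 (long-term), and long-term Trac, Cd163l1, Ccr7 and Malat1 turned to 0.29, 0.13, 0.15 and 0.28, since the deeper cells lift every gene. Of 42 genes compared per experiment, 11 (T22) and 12 (long-term) turned from below to above 0 on that scale, T22 Trac to 0.44, Il7r to 0.32, Cd8a to 0.24, Cd4 to 0.21, Icos to 0.52 and Malat1 to 0.17 among them. A pseudocount of 10 CPM left 28 lower genes (T22) and 271 higher and 250 lower (long-term). Without the level filter 275 were lower (T22), and 1323 higher and 3236 lower (long-term), the added genes being low ones. Equal weight for the other T cell clusters gave 193 lower genes and Cd3e at -0.47 (T22). Without cells holding macrophage UMIs 642 long-term genes were lower and Cd3e was at -0.10. With only CD3-positive members, also added later, T22 Cd3e was -0.16, Gzma -0.041 and Il13 -0.75, and long-term Mki67, Top2a and Cd3e were 1.67, 1.21 and -0.13. The T22 calls were then 432 higher, 409 of them shared with the 415, and 113 lower, 73 of them shared with the 78. The long-term calls were 495 higher, 386 of them shared with the 562, and 500 lower, 349 of them shared with the 387. With at least 1000 genes per cell, long-term Top2a was 1.46 and the long-term share of T cells 2.07%. The cause of the moves with no stated construction was not tested.

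Receptor classes at 1 UMI were 44.3% Trac, 7.42% both and 13.6% neither, and after thinning 27.5% Trac, 30.6% Trdc and 39.5% neither. Leaving out each pool gave T22 shares of 11.4% to 12.6%, 407 to 425 higher and 79 to 89 lower genes, Mki67 at 2.99 to 3.19, Top2a at 2.98 to 3.13 and Cd3e at -0.39 to -0.27. In the long-term pools the ranges were 1.24% to 1.5%, 520 to 759 higher, 391 to 500 lower, Mki67 at 1.71 (without pool 8) to 2.25, Top2a at 1.37 (without pool 5) to 1.91, Cd3e at -0.43 to -0.28 and Il17a at -0.80 (without pool 7) to 2.10. Of 1218 gene ratios under all alternatives, 1045 moved by less than the spread between pools or the counting interval. Dropping the level filter cannot move a ratio, so its 42 ratios per experiment are among the 1045 by construction. The sign changed in 44 of the 1218, of which 23 were on the per-cell scale and 7 were of genes called in CPM. With the pool as replicate block, added later, the mean of the within-pool T22 ratios was 3.07 for Mki67, 3.04 for Top2a and -0.33 for Cd3e. No long-term pool held 20 members, so no such mean was taken there. The 21 long-term cells limit every long-term value.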
